A study of Homo sapiens with 12 samples.

Results

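Transcripts of glycolysis, glucose and lactate transport, hypoxia signalling and the pentose phosphate pathway were followed in 2 human lines of diffuse large B cell lymphoma after induction of a guide RNA against PRMT5, an arginine methyltransferase that dimethylates histones and splicing proteins symmetrically. The 37 genes were taken by symbol from the expression tables, which hold 25369 rows per line, and all 37 had a row in both tables. They were chosen by their textbook roles, with earlier results of these data known. OCI-Ly7 is a line of the germinal centre B cell-like type and TMD8 a line of the activated B cell-like type. In each line a doxycycline-inducible guide against PRMT5 was switched on with 20 ng/ml doxycycline, and RNA was sequenced after 0, 3 and 6 days, with 2 libraries for each line and day (12 libraries in 6 groups). The groups are therefore OCI-Ly7 at days 0, 3 and 6 and TMD8 at days 0, 3 and 6, and the day 0 cells carry the uninduced guide too. No library with doxycycline and without the guide was analysed here, so the guide, the drug and the days in culture cannot be told apart. The days follow the sample titles, the characteristics and the design text. The treatment text of the labels departs from them and names days 0, 2 and 3 of doxycycline. The labels do not say whether the 2 libraries of a group came from separate cultures, so the p-values measure only the spread between these libraries, which may be technical.

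Glycolysis splits glucose to pyruvate, and proliferating B cells reduce much of that pyruvate to lactate, which leaves the cell through monocarboxylate transporters together with a proton. Hypoxia-inducible factor 1, a dimer of HIF1A and ARNT, is degraded in the presence of oxygen after prolyl hydroxylases (EGLN genes) mark it for the VHL ubiquitin ligase. When stable it binds a core ACGTG element near many genes of glucose uptake, glycolysis and lactate production, and MYC and MAX bind the E-box CACGTG, which contains that core, near several of the same genes. The pentose phosphate pathway branches off near the start of glycolysis and yields NADPH and ribose for nucleotides.

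The promoters of 4 of these genes are shown because the genes moved apart between the lines at day 6: LDHA and PGK1 on one side, ENO2 and PFKFB4 on the other. The sequences are from RefSeq on GRCh38.p14, on the strand of the gene, from 250 bases before to 50 bases after the annotated start, and capitals mark ACGTG in either orientation (CACGT is its reverse complement, and CACGTG holds both). The windows are chr11:18394313-18394612 (plus strand) for LDHA, chrX:78103998-78104297 (plus strand) for PGK1, chr12:6914330-6914629 (plus strand) for ENO2 and chr3:48556754-48557053 (minus strand) for PFKFB4.
LDHA: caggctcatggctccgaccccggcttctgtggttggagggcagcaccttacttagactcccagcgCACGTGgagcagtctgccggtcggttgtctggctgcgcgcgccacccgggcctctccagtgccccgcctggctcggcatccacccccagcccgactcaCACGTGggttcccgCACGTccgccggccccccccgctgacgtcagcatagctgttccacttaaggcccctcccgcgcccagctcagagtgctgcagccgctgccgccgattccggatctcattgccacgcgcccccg
PGK1: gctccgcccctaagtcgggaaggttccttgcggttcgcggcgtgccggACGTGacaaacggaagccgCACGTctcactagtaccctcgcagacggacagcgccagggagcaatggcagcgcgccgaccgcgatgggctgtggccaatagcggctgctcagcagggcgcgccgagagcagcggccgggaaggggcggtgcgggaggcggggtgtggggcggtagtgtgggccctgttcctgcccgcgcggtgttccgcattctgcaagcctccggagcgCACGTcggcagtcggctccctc
ENO2: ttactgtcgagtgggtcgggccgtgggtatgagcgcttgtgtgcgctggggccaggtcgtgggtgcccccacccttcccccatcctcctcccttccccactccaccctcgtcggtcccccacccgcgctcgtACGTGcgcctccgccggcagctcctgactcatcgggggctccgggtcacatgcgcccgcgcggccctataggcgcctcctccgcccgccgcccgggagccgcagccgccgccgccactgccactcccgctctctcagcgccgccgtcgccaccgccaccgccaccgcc
PFKFB4: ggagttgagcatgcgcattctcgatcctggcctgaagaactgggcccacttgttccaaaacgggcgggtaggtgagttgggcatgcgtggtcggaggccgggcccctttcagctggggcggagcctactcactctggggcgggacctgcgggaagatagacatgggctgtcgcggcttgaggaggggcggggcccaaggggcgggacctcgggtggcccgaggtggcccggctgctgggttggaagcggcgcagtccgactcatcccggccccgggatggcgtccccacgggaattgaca
LDHA and PGK1 each held 3 matches in this window, ENO2 held 1 and PFKFB4 held 0, where overlapping matches were counted once. These 4 do not stand for all genes whose day 6 change differed between the lines. On the side of LDHA and PGK1, the windows of PGAM1, PFKM, LDHB and TPI1 held 0 matches and that of PGD held 1. On the side of ENO2 and PFKFB4, those of PFKL, PFKP and ARNT held 0. SLC16A1 on the first side and BNIP3L on the second had no promoter in the RefSeq table. Of the 37 genes, 32 had a promoter in the RefSeq table, and 13 of the 32 windows (40.6%) held ACGTG on either strand, beside 5900 of all 27305 windows of the same length (21.6%). The 13 were those of ALDOA, ALDOC, ANKRD37, BNIP3, EGLN1, ENO2, GAPDH, GPI, HK2, LDHA, P4HA1, PGD and PGK1. The E-box CACGTG was found in 5 of the 32 windows (15.6%), beside 7.43% of all windows. These matches describe letters in a short window and say nothing of binding in these cells.

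The deposited values are FPKM, fragments per kilobase of transcript, relative to the fragments mapped in the library. FPKM summed to between 397477 and 467844 in a library, and between 10092 and 11021 genes were at 1 FPKM or more. Depth in fragments is unknown. The row of the ribosomal RNA precursor RNA45S5, which shares the total, had 11163 and 10374 FPKM on day 0, 14278 and 20542 on day 3, and 16130 and 20185 on day 6 in OCI-Ly7. In TMD8 the same row had 5222 and 7950 FPKM on day 0, 20066 and 20452 on day 3, and 20280 and 17581 on day 6. As deposited, the median of all tested genes moved by -0.31 (log2) in TMD8 and by -0.13 in OCI-Ly7 at day 6 over day 0. Levels are therefore given as scaled FPKM, with 1 median-ratio factor taken out per library within a line, and results on FPKM as deposited are set beside them where the direction or the call differs. The part of the RNA45S5 level in the results below was not tested. PRMT5 itself stood at 35.5 and 43.6 scaled FPKM on day 0, 28.3 and 34.7 on day 3, and 21.4 and 20.3 on day 6 in OCI-Ly7, a log2 change of -0.89 at day 6 over day 0 (adjusted p = 0.0284, and 0.0529 to 0.16 without any 1 library). In TMD8 it stood at 53.8 and 53.1, 43.1 and 44.8, and 56.6 and 57.9 scaled FPKM on the same days, with a log2 change of 0.10 at day 6 (adjusted p = 0.201) that was -0.26 as deposited (adjusted p = 0.0262). Between days 3 and 6 PRMT5 rose in TMD8 on scaled values (log2 change 0.37, adjusted p = 0.021 by limma). As deposited that change was 0.32 and did not pass (adjusted p = 0.0553). Transcript level is an incomplete check of a guide that cuts DNA. Of 8 B cell markers, all 8 averaged at least 1 FPKM in OCI-Ly7 and 7 in TMD8. Of 8 germinal centre markers, 4 averaged higher in OCI-Ly7 than in TMD8 (MME at 8.71 and 0.00377 FPKM, BCL6 at 49.4 and 9.85, STAP1 at 14.03 and 0.474, and MYBL1 at 6.85 and 1.13), while LMO2 and SERPINA9 were at or near 0 in OCI-Ly7. The germinal centre markers S1PR2 and NEK6 averaged 1.91 and 10.55 FPKM in OCI-Ly7 and 3.03 and 40.7 in TMD8. The activated B cell markers IRF4 and CCND2 averaged 77.3 and 0.0574 FPKM in OCI-Ly7 and 356.5 and 69.0 in TMD8. ENTPD1, BATF and BLNK of that list were also higher in TMD8 (12.67, 183 and 56.9 FPKM, against 4.65, 170 and 48.8 in OCI-Ly7). FOXP1, PIM1 and IL16 went the other way, at 16.1, 57.8 and 6.38 FPKM in OCI-Ly7 and 5.22, 28.3 and 0.425 in TMD8. T and NK cell markers summed to at most 3.00 FPKM and myeloid markers to at most 0.383 FPKM in any library. Stromal and epithelial markers summed to 11.7 to 13.8 FPKM in OCI-Ly7, EPCAM foremost, and 1.28 to 2.05 FPKM in TMD8.

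Before induction, among genes detected in both lines, the widest gaps were those of ANKRD37, SLC16A3, ENO2, PFKFB4 and BNIP3, each higher in OCI-Ly7. These levels are described without a test, since the 2 tables were scaled separately, and are means over 2 libraries. With both day 0 libraries of each line compared, 21 of the 37 stood higher in OCI-Ly7, 12 stood lower there, and 4 overlapped. Of the 33 expressed in both lines, 18 stood higher and 11 lower in OCI-Ly7, or 87.9% apart, and of all 9688 genes expressed in both lines 88.1% stood apart (49.2% higher and 38.9% lower in OCI-Ly7). The widest gap was ANKRD37, an ankyrin repeat protein induced by HIF, with 19.7 ± 0.155 scaled FPKM in OCI-Ly7 and 0.723 ± 0.103 in TMD8 (SD, n = 2 each). SLC16A3, the lactate exporter MCT4, averaged 5.53 ± 0.217 scaled FPKM in OCI-Ly7 and 0.293 ± 0.141 in TMD8. ENO2, the neuronal enolase isoform, averaged 31.3 ± 0.191 scaled FPKM in OCI-Ly7 and 1.68 ± 0.313 in TMD8, an 18.6-fold gap. PFKFB4, which sets the level of the activator of phosphofructokinase, averaged 13.8 scaled FPKM in OCI-Ly7 and 1.76 in TMD8. Other HIF-induced genes of the list differed less, with VEGFA 1.23-fold and PGK1 1.51-fold higher in OCI-Ly7, and the libraries of the lines overlapped for PDK1 and LDHA. The mitophagy receptors pointed the same way, with BNIP3 at 64.3 scaled FPKM in OCI-Ly7 and 11.6 in TMD8 and BNIP3L at 40.6 in OCI-Ly7 and 13.0 in TMD8. P4HA1, a subunit of collagen prolyl hydroxylase, ALDOC, an aldolase isoform, and SLC2A1, the glucose importer GLUT1, were 3.56-fold, 3.48-fold and 2.26-fold higher in OCI-Ly7. The order was turned round for HIF1A itself, at 10.1 ± 0.372 scaled FPKM in OCI-Ly7 and 28.7 ± 0.178 in TMD8, and for PFKP, the platelet isoform of phosphofructokinase, at 44.3 in OCI-Ly7 and 119.9 in TMD8. GAPDH had the highest level of the 37 in both lines, at 3150 scaled FPKM in OCI-Ly7 and 2302 in TMD8, and ENO1 and LDHA overlapped between the lines.

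**Figure D1:**
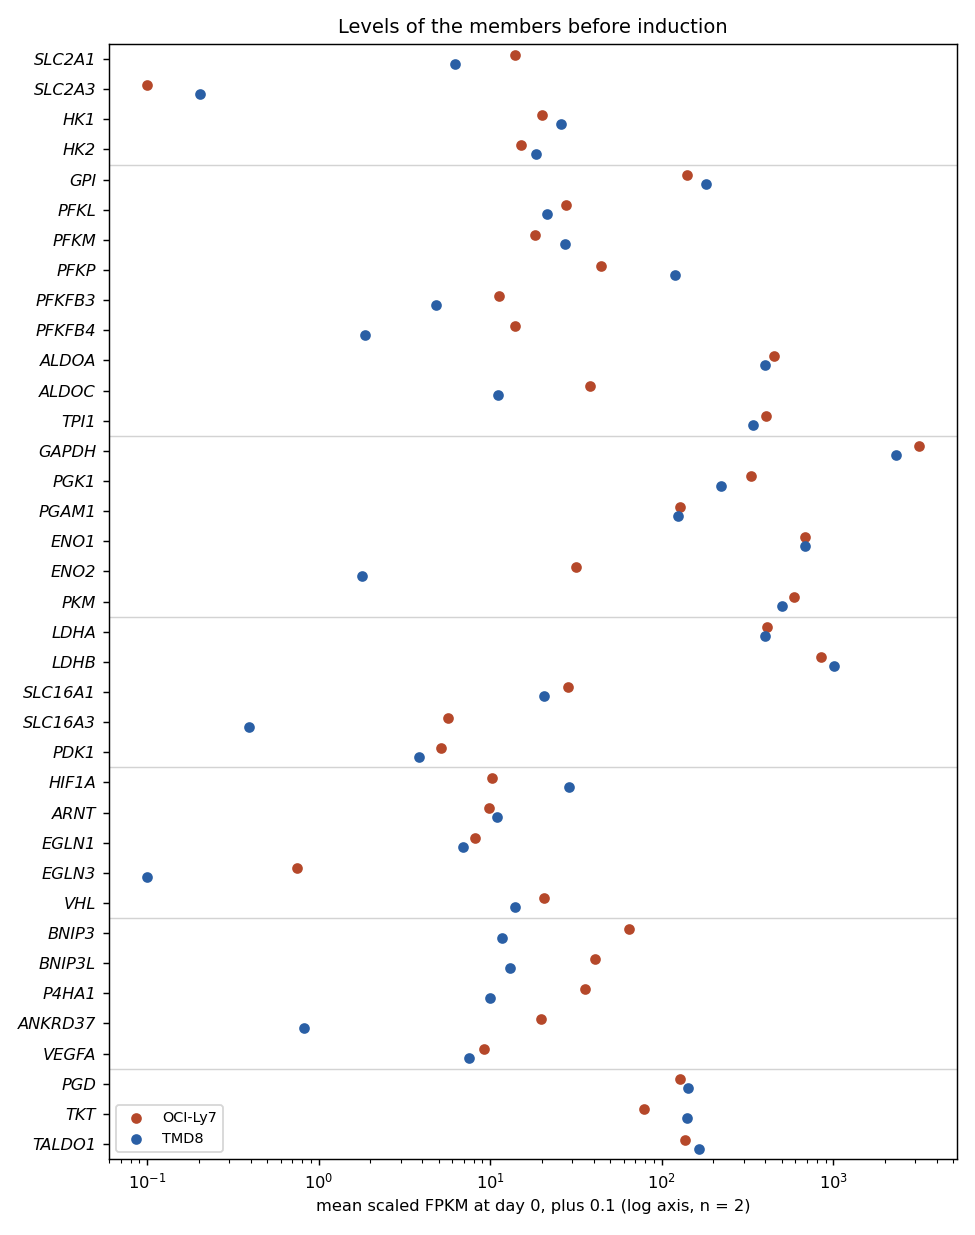
Mean scaled FPKM of the 37 genes at day 0 (2 libraries each, plus 0.1, log axis), with OCI-Ly7 in red and TMD8 in blue and grey lines between the roles. ENO2, SLC16A3 and ANKRD37 show the widest gaps, with OCI-Ly7 higher, while HIF1A and PFKP are higher in TMD8.

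At day 3 no gene of the list passed on scaled values, and at day 6 some rose and some fell. At day 3 over day 0, 0 of 35 tested genes passed limma's test in OCI-Ly7 (0.118% of all genes did) and 0 of 33 in TMD8 (0.22% of all genes did). In that test 4 genes in OCI-Ly7 and 5 in TMD8 had an unadjusted p under 0.05, beside 543 of 11016 and 1321 of 10456 of all genes. The fitted changes at day 3 lay mostly below 0, in 25 of the 35 genes in OCI-Ly7 and 29 of the 33 in TMD8, beside 5750 of 11016 and 5339 of 10456 of all genes. Their median log2 change at day 3 was -0.11 in OCI-Ly7 and -0.08 in TMD8, beside -0.00766 and -0.00333 over all genes. In 22 of the 33 genes tested in both lines the day 3 change was below 0 in both, beside 2878 of all 9688 genes. As deposited, 27 of the 33 were lower at day 3 in TMD8, beside 41.5% of all genes called lower. At day 6 over day 0 in OCI-Ly7, 3 of 35 rose and 6 fell, or 25.7% of those tested, beside 14.8% of all genes called (6.71% higher and 8.05% lower). In TMD8, 2 of 33 rose and 8 fell at day 6, or 30.3%, close to the 28.9% of all genes called (15.4% higher and 13.5% lower). The median log2 change over the tested members was -0.08 in OCI-Ly7 and -0.07 in TMD8, beside 0.01 and 0.00 over all genes. As deposited, 0 rose and 6 fell at day 6 in OCI-Ly7 (1.98% of all genes called higher and 9.39% lower), and 0 rose and 27 fell in TMD8 (3.89% higher and 51.7% lower). SLC2A3 and EGLN3 were under the expression minimum in both lines and SLC16A3 and ANKRD37 in TMD8, and they were not tested there. In bulk RNA, less transcript per cell and fewer cells that express a gene cannot be told apart, and a culture under an induced guide may hold cells with and without an edit.

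**Figure D2:**
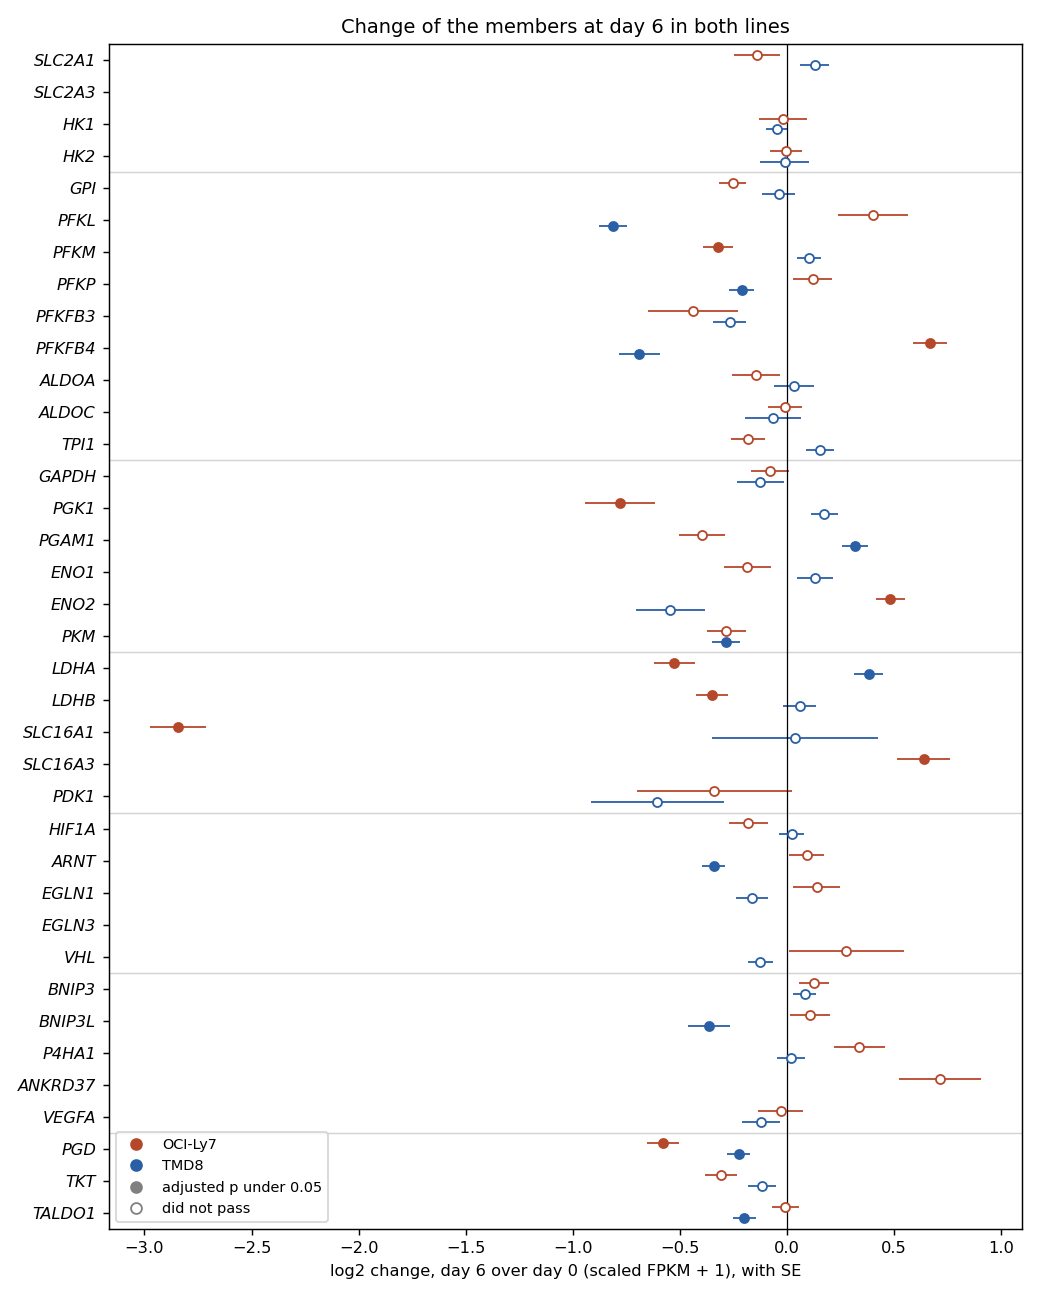
Log2 change of scaled FPKM + 1 at day 6 over day 0 with its standard error for each tested gene, OCI-Ly7 in red above TMD8 in blue, filled where the adjusted p was under 0.05. SLC16A1 in OCI-Ly7 lies far to the left at -2.84, and PFKL, PFKFB4, ENO2, PGK1 and LDHA have their 2 lines on opposite sides of 0, which for PGK1 was so on scaled values and not as deposited.

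The genes of glucose entry moved least. SLC2A1 stood at 12.7 and 15.1 scaled FPKM on day 0, 11.7 and 12.6 on day 3, and 13.0 and 11.9 on day 6 in OCI-Ly7. In TMD8 it stood at 6.28 and 6.03, 5.85 and 6.01, and 6.55 and 7.13 scaled FPKM on the same days. HK1 and HK2, the hexokinases that trap glucose in the cell, had log2 changes between -0.05 and -0.01 at day 6 in both lines. None of these 3 genes passed in either line on scaled values, and HK1 fell in TMD8 as deposited (log2 change -0.40, adjusted p = 0.00724). SLC2A3, the high-affinity importer GLUT3, is listed at 0 in all OCI-Ly7 libraries and reached at most 0.231 scaled FPKM in TMD8.

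In the upper part of glycolysis the calls fell on the phosphofructokinase genes and on PFKFB4, and differed between the lines. Phosphofructokinase commits the sugar to glycolysis and is built from subunits encoded by PFKL (liver), PFKM (muscle) and PFKP (platelet). PFKL stood at 26.9 and 27.9 scaled FPKM on day 0, 27.8 and 21.2 on day 3, and 40.9 and 32.7 on day 6 in OCI-Ly7. In TMD8 PFKL stood at 20.9 and 21.7, 18.6 and 18.6, and 12.2 and 11.2 scaled FPKM. Both day 6 libraries lay above all earlier ones in OCI-Ly7 and below all earlier ones in TMD8. Libraries of day 6 and day 0 alone stood apart, in either direction, in 66.6% of all tested genes in OCI-Ly7 and 71.1% in TMD8. The fall of PFKL in TMD8 was -0.81 (log2, SE 0.06, adjusted p = 0.00342). Its change in OCI-Ly7 was 0.40 and did not pass (adjusted p = 0.146). PFKM had the reverse order, at 18.7 and 17.3 scaled FPKM on day 0, 15.9 and 16.5 on day 3, and 14.2 and 14.1 on day 6 in OCI-Ly7, a fall of 0.32 on the log2 scale (adjusted p = 0.0453). In TMD8 it stood at 27.6 and 26.5, 23.5 and 23.9, and 28.4 and 29.8 scaled FPKM, a log2 change of 0.10 (adjusted p = 0.206) that was -0.25 as deposited (adjusted p = 0.049). PFKP stood at 119.9 and 119.9 scaled FPKM on day 0, 115 and 123 on day 3, and 102 and 105 on day 6 in TMD8, a small fall (log2 change -0.21, adjusted p = 0.0452). In OCI-Ly7 PFKP stood at 44.8 and 43.7, 44.3 and 37.9, and 49.1 and 47.3 scaled FPKM (adjusted p = 0.382).

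The bifunctional enzymes PFKFB3 and PFKFB4 make and break the allosteric activator of phosphofructokinase, and PFKFB4 moved in opposite directions in the 2 lines. PFKFB4 stood at 13.7 and 13.9 scaled FPKM on day 0, 14.9 and 13.4 on day 3, and 23.2 and 22.0 on day 6 in OCI-Ly7. In TMD8 it stood at 1.66 and 1.87, 1.04 and 1.15, and 0.664 and 0.765 scaled FPKM on the same days. It rose by 0.67 in OCI-Ly7 (log2, SE 0.08, adjusted p = 0.0251, and 0.0553 as deposited) and fell by 0.69 on the log2 scale in TMD8 (SE 0.10, adjusted p = 0.01). The TMD8 level is close to the pseudocount of 1, so that its log2 change understates the change in level. PFKFB3 passed in neither line, with log2 changes of -0.44 in OCI-Ly7 and -0.27 in TMD8. GPI, the isomerase that follows hexokinase, fell short of the threshold in OCI-Ly7 (log2 change -0.25, adjusted p = 0.056) and had a change of -0.04 in TMD8. The aldolases ALDOA and ALDOC and the triose phosphate isomerase TPI1 passed in neither line, with changes between -0.18 and 0.16. As deposited, GPI, PFKFB3, ALDOA, ALDOC and TPI1 were lower at day 6 in TMD8, with adjusted p-values between 0.0081 and 0.0385.

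**Figure D3:**
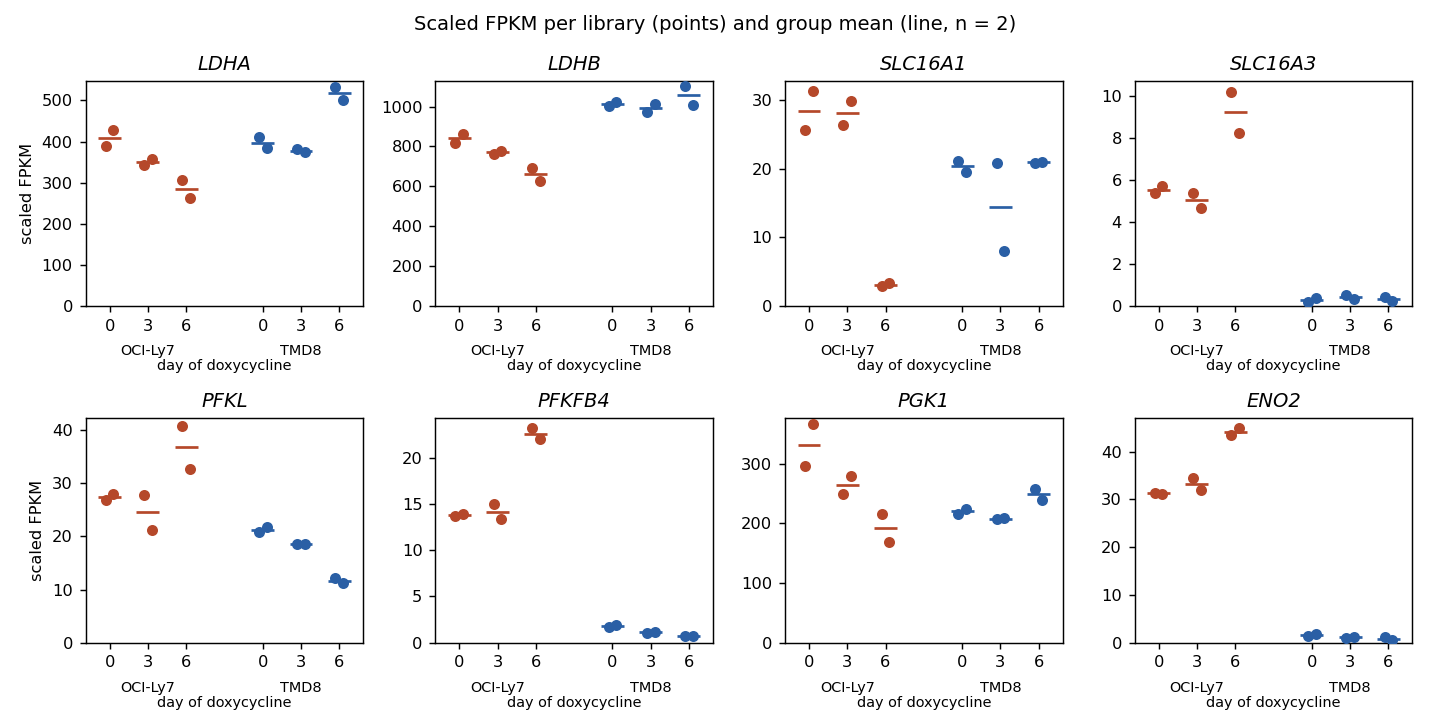
Scaled FPKM of 8 genes in each library (points) with the mean of the 2 libraries (line), OCI-Ly7 in red and TMD8 in blue, by day of doxycycline, each panel starting at 0. SLC16A1 stands at 2.86 and 3.31 at day 6 in OCI-Ly7 and at 20.8 and 21.0 in TMD8, and LDHA and PGK1 are lower than at day 0 in OCI-Ly7 and not in TMD8, where PGK1 was lower as deposited.

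In the lower part of glycolysis, PGK1 and ENO2 changed in OCI-Ly7 and PGAM1 and PKM in TMD8. PGK1 makes the first ATP of the pathway. It stood at 295 and 367 scaled FPKM on day 0, 249 and 280 on day 3, and 216 and 169 on day 6 in OCI-Ly7, a fall of 0.78 on the log2 scale (SE 0.16, adjusted p = 0.0409). In TMD8 PGK1 stood at 215 and 224, 207 and 208, and 257 and 239 scaled FPKM, a log2 change of 0.17 (adjusted p = 0.085) that was -0.19 as deposited (adjusted p = 0.0229). PGAM1, the phosphoglycerate mutase, stood at 121 and 135 scaled FPKM on day 0, 113 and 110.3 on day 3, and 106 and 88.9 on day 6 in OCI-Ly7 (log2 change -0.40, adjusted p = 0.0643). In TMD8 it stood at 123 and 125, 124 and 124, and 161 and 149 scaled FPKM, a rise of 0.32 (adjusted p = 0.0186) that was -0.04 as deposited (adjusted p = 0.515). The near-identical copy PGAM4 moved the same way, by -0.47 in OCI-Ly7 and 0.30 in TMD8, so that the reads of the pair may be split between both rows. TPI1 has similar rows, TPI1P2 and TPI1P3.

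ENO2 and ENO1 encode enolases, and in OCI-Ly7 it was the minor isoform of the pair, ENO2, that passed on scaled values. ENO2 stood at 31.4 and 31.2 scaled FPKM on day 0, 34.4 and 31.9 on day 3, and 43.4 and 44.9 on day 6 in OCI-Ly7. It rose by 0.48 (log2, SE 0.07, adjusted p = 0.0268, and 0.108 as deposited). In TMD8 ENO2 stood at 1.46 and 1.90, 1.04 and 1.13, and 1.09 and 0.607 scaled FPKM, a log2 change of -0.54 that did not pass (adjusted p = 0.0551) except as deposited (-0.75, adjusted p = 0.00769). ENO1, the main isoform, had changes of -0.18 in OCI-Ly7 and 0.13 in TMD8 and passed in neither line at day 6 over day 0. PKM, the pyruvate kinase, stood at 505 and 499 scaled FPKM on day 0, 408 and 441 on day 3, and 409 and 416 on day 6 in TMD8, a fall of 0.28 on the log2 scale (adjusted p = 0.0294). In OCI-Ly7 PKM stood at 555 and 627, 482 and 476, and 512 and 459 scaled FPKM, with the same size of change, -0.28, which did not pass (adjusted p = 0.0914). GAPDH passed in neither line on scaled values, at 3215 and 2765 scaled FPKM at day 6, against 3130 and 3170 at day 0, in OCI-Ly7, and at 2106 and 2120, against 2322 and 2283, in TMD8. As deposited GAPDH was lower in TMD8 (log2 change -0.49, adjusted p = 0.00805).

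The largest change of the list fell on lactate transport in OCI-Ly7. SLC16A1 encodes the monocarboxylate transporter MCT1, which carries lactate and pyruvate in either direction. It stood at 25.6 and 31.3 scaled FPKM on day 0, 26.3 and 29.8 on day 3, and 2.86 and 3.31 on day 6 in OCI-Ly7. The fall, -2.84 on the log2 scale (SE 0.13, adjusted p = 0.00396), came between days 3 and 6 (day 6 over day 3 -2.83, adjusted p = 0.00356). In TMD8 SLC16A1 stood at 21.1 and 19.6 scaled FPKM on day 0, 20.7 and 8.0 on day 3, and 20.8 and 21.0 on day 6. The 2 day 3 libraries of TMD8 disagreed, and the day 6 change of 0.04 did not pass (adjusted p = 0.949). The antisense neighbour SLC16A1-AS1 had a log2 change of -0.06 at day 6 in OCI-Ly7 (adjusted p = 0.746). SLC16A3, the exporter MCT4, stood at 5.38 and 5.69 scaled FPKM on day 0, 5.36 and 4.67 on day 3, and 10.2 and 8.22 on day 6 in OCI-Ly7. It rose by 0.64 on the log2 scale (adjusted p = 0.0365, and 0.0871 as deposited), while in TMD8 it stayed between 0.193 and 0.513 scaled FPKM and was not tested. SLC16A3 overlaps exons of CSNK1D on the opposite strand, whose own change in OCI-Ly7 was 0.10 (adjusted p = 0.384), and no strand setting was given in the sources used here. Within a library, SLC16A3 over SLC16A1 in deposited FPKM, a ratio that no scaling can move, was 0.211 and 0.182 on day 0, 0.204 and 0.157 on day 3, and 3.56 and 2.49 on day 6 in OCI-Ly7. This ratio and those below were chosen after the values were seen and were not tested.

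LDHA and LDHB encode the subunits of lactate dehydrogenase, of which LDHA favours lactate formation and LDHB the reverse reaction. LDHA stood at 390 and 429 scaled FPKM on day 0, 343 and 358 on day 3, and 306 and 263 on day 6 in OCI-Ly7. In TMD8 LDHA stood at 410 and 383, 381 and 374, and 534 and 500.3 scaled FPKM. It fell by 0.53 on the log2 scale in OCI-Ly7 (adjusted p = 0.0346) and rose by 0.38 in TMD8 (adjusted p = 0.0165), where the change was 0.02 as deposited (adjusted p = 0.85). LDHB stood at 818 and 864 scaled FPKM on day 0, 763 and 777 on day 3, and 692 and 627 on day 6 in OCI-Ly7, a fall of 0.35 on the log2 scale (adjusted p = 0.042). In TMD8 LDHB stood at 1005 and 1021, 972 and 1013, and 1104 and 1009 scaled FPKM (log2 change 0.06, adjusted p = 0.584), and it was lower as deposited (-0.30, adjusted p = 0.00583). The ratio of LDHA to LDHB in deposited FPKM was 0.442 and 0.420 at day 6, against 0.477 and 0.496 at day 0, in OCI-Ly7, and 0.483 and 0.496, against 0.409 and 0.375, in TMD8. PDK1, the kinase that shuts pyruvate dehydrogenase, had libraries that disagreed, at 7.22 and 2.92 scaled FPKM at day 0 in OCI-Ly7 and 3.35 and 1.21 at day 6 in TMD8. It passed in neither line on scaled values and was lower in TMD8 as deposited (adjusted p = 0.0371).

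Other pairs of isoforms shifted against each other as well. These ratios, too, were not tested. PFKL over PFKM in deposited FPKM was 2.87 and 2.31 at day 6, against 1.44 and 1.62 at day 0, in OCI-Ly7, and 0.431 and 0.374, against 0.757 and 0.819, in TMD8. PFKFB4 over PFKFB3 was 2.93 and 2.74 at day 6, against 1.29 and 1.19 at day 0, in OCI-Ly7, and 0.187 and 0.193, against 0.337 and 0.411, in TMD8. In both pairs the day 6 and day 0 ratios did not overlap in either line, and they lay on opposite sides of day 0 in the 2 lines. The same held for ENO2 over ENO1 and PFKL over PFKP, while ALDOC over ALDOA overlapped in TMD8. Of all tested genes, 66.6% in OCI-Ly7 and 71.1% in TMD8 had day 6 libraries apart from those of day 0. No such share was taken for ratios. HK2 over HK1 overlapped between day 6 and day 0 in both lines.

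Among the genes of the hypoxia pathway, ARNT changed in TMD8 and HIF1A in neither line. HIF1A, the oxygen-regulated subunit, stood at 9.80 and 10.3 scaled FPKM on day 0, 10.1 and 10.1 on day 3, and 9.47 and 8.10 on day 6 in OCI-Ly7 (adjusted p = 0.221). In TMD8 HIF1A stood at 28.6 and 28.8, 29.8 and 28.1, and 29.8 and 28.5 scaled FPKM (adjusted p = 0.795), and as deposited its change was -0.33 (adjusted p = 0.0106). Transcript level says little about HIF1A protein, which is controlled mainly by its breakdown. ARNT, the constitutive partner, fell in TMD8, to 8.20 and 8.38 scaled FPKM at day 6, against 10.8 and 10.8 at day 0 and 10.4 and 10.7 at day 3 (log2 change -0.34, adjusted p = 0.0124). In OCI-Ly7 ARNT stood at 10.4 and 9.12, 9.34 and 9.33, and 10.3 and 10.6 scaled FPKM over days 0, 3 and 6 (adjusted p = 0.468). EGLN1, the main prolyl hydroxylase, and VHL, the ubiquitin ligase subunit, passed in neither line on scaled values, and both were lower in TMD8 as deposited (adjusted p = 0.00782 and 0.00679). The 2 day 0 libraries of OCI-Ly7 disagreed for VHL, at 14.4 and 26.3 scaled FPKM. EGLN3 is listed at 0 in 5 of 6 TMD8 libraries and reached at most 0.840 scaled FPKM in OCI-Ly7.

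Of the 5 genes grouped here as HIF targets (BNIP3, BNIP3L, P4HA1, ANKRD37 and VEGFA), BNIP3L was the 1 that passed on scaled values, in TMD8. HIF-induced genes placed under other roles, such as LDHA and PGK1, passed as described above. BNIP3L, a receptor for mitophagy, stood at 12.7 and 13.2 scaled FPKM on day 0, 13.0 and 11.5 on day 3, and 10.7 and 9.01 on day 6 in TMD8 (log2 change -0.37, adjusted p = 0.0448). In OCI-Ly7 it stood at 39.6 and 41.6, 40.6 and 42.6, and 47.3 and 40.5 scaled FPKM (adjusted p = 0.446). ANKRD37 stood at 38.2 and 28.5 scaled FPKM at day 6, against 19.8 and 19.6 at day 0, in OCI-Ly7, a log2 change of 0.71 that did not pass (adjusted p = 0.064). P4HA1 stood at 47.1 and 42.4 scaled FPKM at day 6, against 31.6 and 39.1 at day 0, in OCI-Ly7 and did not pass (adjusted p = 0.11). BNIP3 and VEGFA, the angiogenic growth factor, had log2 changes between -0.12 and 0.12 in both lines and passed in neither on scaled values. As deposited, BNIP3, P4HA1 and VEGFA were lower in TMD8 (adjusted p-values 0.0402, 0.0121 and 0.0261).

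In the pentose phosphate pathway PGD fell in both lines. PGD, the decarboxylating dehydrogenase of the oxidative branch, stood at 123 and 131 scaled FPKM on day 0, 116 and 114 on day 3, and 88.8 and 80.4 on day 6 in OCI-Ly7, a fall of 0.58 on the log2 scale (adjusted p = 0.026). In TMD8 it stood at 140 and 142, 134 and 131, and 118 and 123 scaled FPKM, a fall of 0.23 (adjusted p = 0.0312). It was the 1 gene of the 33 tested in both lines that passed in the same direction in both, and LDHA and PFKFB4 passed in both in opposite directions. TALDO1, the transaldolase of the non-oxidative branch, fell in TMD8, to 142 and 146 scaled FPKM at day 6, against 165 and 166 at day 0 and 151 and 159 at day 3 (log2 change -0.20, adjusted p = 0.0448). In OCI-Ly7 TALDO1 stood at 132 and 141, 128 and 128, and 139 and 133 scaled FPKM (adjusted p = 0.948). TKT, the transketolase, passed in neither line on scaled values, with log2 changes of -0.31 in OCI-Ly7 (adjusted p = 0.0555) and -0.12 in TMD8, and was lower in TMD8 as deposited (adjusted p = 0.00426).

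How far these calls rest on single libraries differed. In TMD8, PFKL passed at day 6 in all 6 fits that left out 1 library (log2 change -0.87 to -0.75), and without either day 0 library it was the 1 gene of the list that passed. In OCI-Ly7, SLC16A1 passed in all 6 such fits (log2 change -2.99 to -2.70, adjusted p 0.0123 to 0.0332), and it was the 1 gene that passed in each of them. The other 8 OCI-Ly7 calls then had adjusted p-values between 0.0515 (PFKFB4) and 0.216 (LDHB). In TMD8, PFKFB4, ARNT and PGAM1 lost their call without either day 0 library, with adjusted p-values of up to 0.0694, 0.0921 and 0.113. LDHA lost it without either day 0 library or the first day 6 library, and PKM without any day 0 or day 6 library (up to 0.0948 and 0.15). PGD and BNIP3L passed in 1 of the 6 fits, and PFKP and TALDO1 in 0 of the 6 (up to 0.188). All 10 TMD8 and 9 OCI-Ly7 calls kept their sign in these fits.

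Day 6 was also set against day 3. In OCI-Ly7, 3 of 35 rose and 2 fell, beside 8.75% of all genes called (4.23% higher and 4.52% lower): PFKFB4 (0.64), ENO2 (0.40) and SLC16A3 (0.76) rose and SLC16A1 (-2.83) and PGD (-0.44) fell, in log2 change. As deposited, SLC16A1 was the 1 that passed (0.118% of all genes called lower). In TMD8, 4 of 33 rose and 2 fell, beside 11.7% of all genes called (6.56% higher and 5.1% lower): PFKM (0.28), PGAM1 (0.32), ENO1 (0.37) and LDHA (0.45) rose and PFKL (-0.63) and ARNT (-0.31) fell, in log2 change. As deposited, 2 rose and 2 fell (3.38% of all genes called higher and 4.47% lower). These comparisons use the same day 6 libraries as those against day 0.

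The change at day 6 over day 0 was then compared between the lines as OCI-Ly7 minus TMD8 in 1 fit over the 12 libraries, and 14 of 33 genes differed. That is 42.4% of those tested, beside 33.1% of all genes called (14.1% higher and 19% lower). The difference was positive in 6: PFKFB4 (1.36, SE 0.11, adjusted p = 0.000467), PFKL (1.22, SE 0.19, adjusted p = 0.00278), ENO2 (1.03), BNIP3L (0.47), ARNT (0.43) and PFKP (0.33). It was negative in 8: SLC16A1 (-2.88, SE 0.47, adjusted p = 0.00324), PGK1 (-0.96), LDHA (-0.91), PGAM1 (-0.71), PFKM (-0.43), LDHB (-0.41), PGD (-0.35) and TPI1 (-0.34). TPI1 stood at 400.4 and 411 scaled FPKM on day 0, 369 and 359 on day 3, and 381 and 336 on day 6 in OCI-Ly7, and at 347 and 333, 301 and 321, and 388 and 369 in TMD8. In 13 of the 14 the fitted changes of the 2 lines had opposite signs, and PGD was lower in both. The 14 were chosen by that test, and of all 3207 genes of the table that passed it, 84.3% also had opposite signs on scaled values and 51% as deposited. With FPKM as deposited the signs were opposite in 4 of the 14 (ENO2, LDHA, PFKFB4 and PFKL), and the other 10 were lower in both. As deposited, 8 differences were positive and 4 negative (18.4% of all genes called positive and 6.3% negative), with PFKM, TPI1, LDHB and PGD no longer past the threshold. PFKL, PFKM, PFKFB4, PGK1, PGAM1, ENO2, LDHA, SLC16A1 and ARNT passed in all 12 fits that left out 1 library, LDHB and PGD in 10, TPI1 and BNIP3L in 6 and PFKP in 2. At day 3 the difference passed in 0 of 33 genes by limma (0.0929% of all genes), and 2 had an unadjusted p under 0.05, beside 705 of all 9688 genes. Over all 33 genes, the fitted changes at day 6 had opposite signs in 19, beside 5246 of all 9688 genes.

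**Figure D4:**
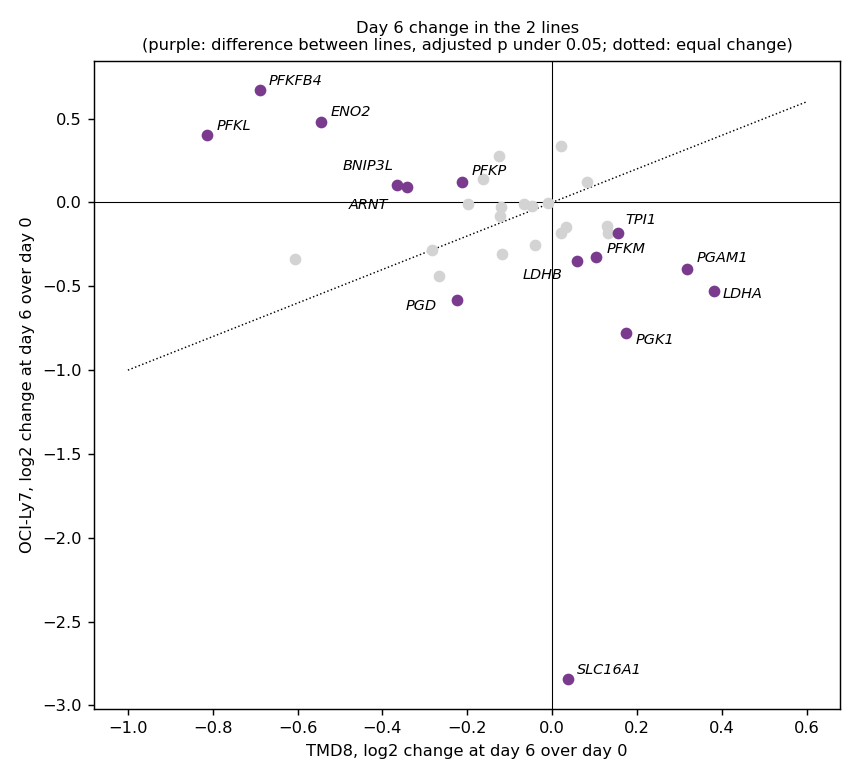
Log2 change at day 6 over day 0 in OCI-Ly7 (vertical) against TMD8 (horizontal) for the 33 genes tested in both lines, purple where the difference between the lines had an adjusted p under 0.05, with a dotted line of equal change. Of the 14 purple points, 6 lie at the upper left and 7 at the lower right, and PGD lies at the lower left.

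How much the choice of scaling moved each change was the same for nearly all genes of a line. In OCI-Ly7 the calls that passed under both scalings were 6, all lower: PFKM, PGK1, LDHA, LDHB, SLC16A1 and PGD. In TMD8 the calls that passed under both were 8, all lower: PFKL, PFKP, PFKFB4, PKM, ARNT, BNIP3L, PGD and TALDO1. The higher calls, 3 in OCI-Ly7 and 2 in TMD8, did not pass as deposited.

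**Figure D5:**
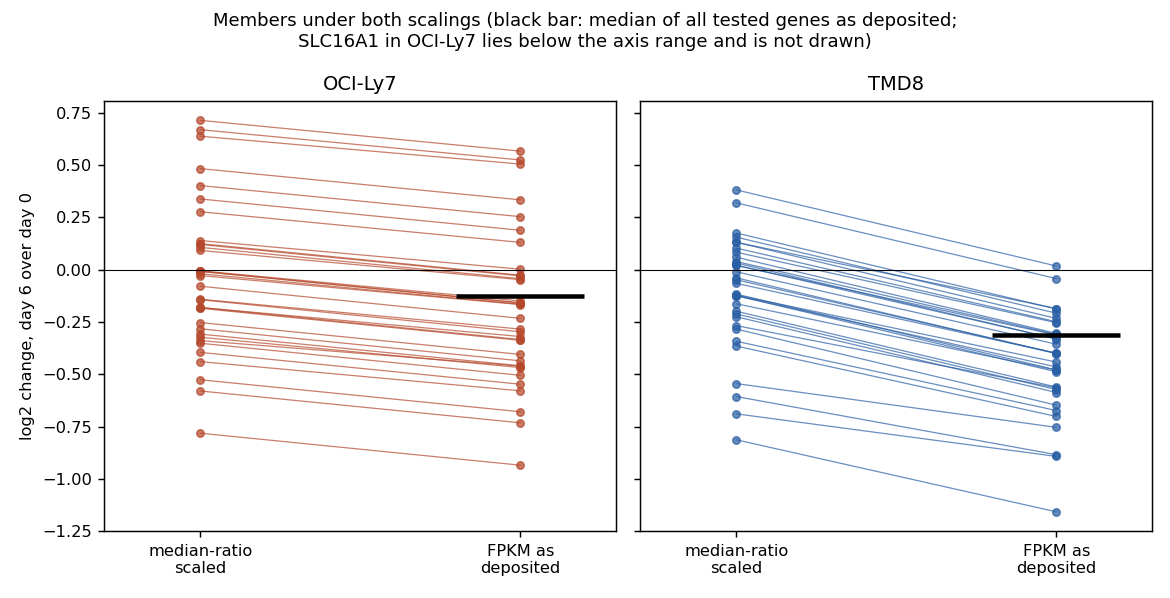
Log2 change at day 6 over day 0 of each tested gene on scaled FPKM (left) and on FPKM as deposited (right), with the median of all tested genes as deposited as a black bar, -0.13 in OCI-Ly7 and -0.31 in TMD8. The lines run nearly parallel and downwards, and SLC16A1 in OCI-Ly7 (-2.84 and -2.98) lies below the drawn range.

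Other genes of the same pathways, from lists that do not share genes with the 37, were counted in the same fits. In OCI-Ly7 these counts carry the same limit as above, since the count over all genes at day 6 over day 0 fell to 18 to 68 without any 1 library, against 1626 with all. Of 40 other hypoxia pathway genes and targets, 29 were tested in OCI-Ly7, and 7 rose and 1 fell at day 6 over day 0, with a median log2 change of 0.28, beside 6.71% of all genes higher and 8.05% lower. As deposited 1 rose and 2 fell, beside 1.98% of all genes higher and 9.39% lower. BHLHE40, a HIF-induced transcriptional repressor, rose by 0.83 (adjusted p = 0.0324), to 6.25 and 5.35 scaled FPKM at day 6, against 2.45 and 3.21 at day 0, and passed as deposited too. CA9, the carbonic anhydrase widely used as a marker of hypoxia, rose by 0.74 (adjusted p = 0.0409), to 2.63 and 1.91 scaled FPKM, against 0.980 and 0.928. HILPDA, which coats lipid droplets, rose by 0.65 (adjusted p = 0.0316), to 217 and 182 scaled FPKM, against 119 and 134. CA9 and HILPDA did not pass as deposited (adjusted p = 0.0677 and 0.083). CITED2, which competes with HIF1A for its coactivator, fell by 0.70 on the log2 scale (adjusted p = 0.0284). In TMD8, 25 of the 40 were tested, and 3 rose (P4HA2 by 0.52, RBX1 by 0.40 and JMJD6 by 0.39) and 4 fell (ERO1L -0.30, KDM3A -0.29, GYS1 -0.28 and HIF1AN -0.23, in log2 change). These 7 of 25 are near the 28.9% of all genes called, and the median was 0.03. As deposited 1 rose and 13 fell, beside 3.89% of all genes higher and 51.7% lower. RBX1 and JMJD6 then no longer passed (adjusted p = 0.568 and 0.571), while P4HA2 and the 4 that fell on scaled values did. The difference between the lines passed in 11 of 25, with 7 positive and 4 negative, beside 33.1% of all genes.

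Genes of pyruvate dehydrogenase and the citric acid cycle, which take up the pyruvate that is not reduced to lactate, were lower in OCI-Ly7 where they changed. Of 30 tested of 31, 0 rose and 9 fell at day 6 in OCI-Ly7, with a median log2 change of -0.20, beside 6.71% of all genes higher and 8.05% lower. As deposited 0 rose and 7 fell, beside 1.98% of all genes higher and 9.39% lower. DLD, a shared subunit of the pyruvate and oxoglutarate dehydrogenases, fell to 21.2 and 19.2 scaled FPKM, against 30.4 and 32.9 at day 0 (log2 change -0.62, adjusted p = 0.0268). MDH2, the mitochondrial malate dehydrogenase, fell to 93.2 and 80.0 scaled FPKM, against 126 and 133 (log2 change -0.58, adjusted p = 0.0298). SDHC and DLAT fell by 0.54 and 0.51 on the log2 scale. In TMD8, 4 rose and 5 fell of 30, near the 28.9% of all genes called. Among them were OGDH, with a log2 change of -0.65 (adjusted p = 0.00444), IDH3A, with 0.46 (adjusted p = 0.00613), PDPR (-0.43) and IDH2 (-0.40). As deposited 0 rose and 21 fell, beside 3.89% of all genes higher and 51.7% lower. The difference between the lines passed in 16 of 30, with 3 positive and 13 negative, beside 14.1% of all genes positive and 19% negative. As deposited it passed in 11, with 5 positive and 6 negative, beside 18.4% of all genes positive and 6.3% negative. Of 7 other pentose phosphate genes tested in each line, 0 rose and 1 fell in OCI-Ly7 (RPIA, -0.34) and 0 rose and 2 fell in TMD8. Over all genes, 8.05% were lower in OCI-Ly7 and 13.5% in TMD8. As deposited limma called 0 in OCI-Ly7, where 3 had an unadjusted p under 0.05, beside 3766 of 11016 of all genes. In TMD8 6 fell as deposited, beside 51.7% of all genes lower. Those that fell in TMD8 included H6PD, a dehydrogenase of the endoplasmic reticulum (log2 change -0.51 on scaled values, adjusted p = 0.0134). Of 15 other glycolysis and gluconeogenesis genes tested in each line, 1 rose and 2 fell in OCI-Ly7 and 3 rose and 1 fell in TMD8. Over all genes, 14.8% were called in OCI-Ly7 and 28.9% in TMD8. As deposited 0 rose and 2 fell in OCI-Ly7 and 0 rose and 7 fell in TMD8, beside 9.39% and 51.7% of all genes lower. Those called on scaled values included PGM2 (-0.72), ENO3 (0.52) and PGAM4 in OCI-Ly7 and ADPGK (0.40), PCK2 (-0.40), TXNIP (0.24) and PGAM4 in TMD8.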

How the data were processed

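RNA was measured in 12 libraries of 2 lymphoma lines (6 groups of 2). Per the labels' protocols, total RNA was taken with an RNeasy Plus kit and libraries were made with a TruSeq RNA kit. The submitters' processing notes name HISAT, StringTie and the build hg19. Versions, strand setting and annotation are not given in the sources used here. Each deposited table, 1 per line, gives the authors' FPKM for its 6 libraries. FPKM are relative to the fragments mapped in a library, and depend on what other rows take up. Each library was therefore divided by the median, over genes, of its ratio to the gene's geometric mean in that line.

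Day effects were tested with limma 3.58.1 in R 4.3.3 (mean-dependent trend) on log2(scaled FPKM + 1), for genes with a mean deposited FPKM of at least 1 in the line: 10456 genes in TMD8, 11016 in OCI-Ly7 and 9688 for the difference between lines. Residual degrees of freedom were 3 in a line, pooled over its days, and 6 over both lines. P-values were adjusted by Benjamini-Hochberg over all genes tested, with a threshold of 0.05. The steps were tested on simulated data. Fold changes on this scale understate changes of low genes. Where 1 library was left out, the lone library of its group was assumed to vary like the others.

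Alternatives were FPKM as deposited, upper-quartile scaling, a pseudocount of 0.1, no filter, a mean of at least 5, a replicate block and leaving out each library. The genes and lists were chosen with earlier results of these data known. Values in every library are given for genes past the threshold at day 6 under both scalings, for those whose change differed between the lines, and for at least 1 gene per role. From each other list up to 4 genes with the largest change were named per line, except for 1 gene that is not reported here. Promoters came from RefSeq (GRCh38.p14), and overlaps between genes from GENCODE on GRCh38, of another build than the files, so no overlap is given with coordinates. Markers were 8 genes per cell type.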

Additional observations from a re-analysis of the deposited data

Results flagged for a closer look

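The change at day 6 over day 0 differed between OCI-Ly7 and TMD8 in a test of the difference itself for 14 of the 33 genes tested in both lines. As log2 change in OCI-Ly7 minus that in TMD8, the difference was 1.36 for PFKFB4, 1.22 for PFKL, 1.03 for ENO2, 0.47 for BNIP3L, 0.43 for ARNT and 0.33 for PFKP. It was -2.88 for SLC16A1, -0.96 for PGK1, -0.91 for LDHA, -0.71 for PGAM1, -0.43 for PFKM, -0.41 for LDHB, -0.35 for PGD and -0.34 for TPI1. Of all 9688 genes, 33.1% differed in the same test, so that many genes outside the list would be named by it too.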

How the results depend on the processing

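Upper-quartile scaling, a pseudocount of 0.1 and a mean FPKM of at least 5 kept each count of genes past the threshold within 1.5 times the value in the report. On FPKM as deposited the count was 27 in TMD8 at day 3 over day 0, 27 at day 6 over day 0, and 1 in OCI-Ly7 at day 6 over day 3. These TMD8 changes then turned negative: at day 3 PGAM1 (-0.30) and HIF1A (-0.28), and at day 6 PFKM (-0.25), ALDOA (-0.33), TPI1 (-0.21), PGK1 (-0.19), PGAM1 (-0.043), LDHB (-0.30), HIF1A (-0.33), BNIP3 (-0.25), P4HA1 (-0.31) and PRMT5 (-0.26). As deposited, the median of all genes in TMD8 moved by -0.27 at day 3 and by -0.31 at day 6, a common shift that median-ratio scaling takes out. What made this common shift was not tested. With no filter the count in OCI-Ly7 was 4 at day 6 over day 0 and 3 at day 6 over day 3; the cause was not tested. Without 1 library the count ranged from 0 to 1 in TMD8 at day 3 over day 0 (SLC16A1 passed without the first day 3 library), from 1 to 7 at day 6 over day 0 and from 0 to 3 at day 6 over day 3. In OCI-Ly7 it was 1 in every such fit at day 6 over day 0 and at day 6 over day 3, whichever library was left out, and over all genes at day 6 over day 0 it fell to 18 to 68, against 1626 with all libraries. For the difference between the lines at day 6 it ranged from 9 to 14. With a replicate block the count was 5 in TMD8 at day 6 over day 0, 0 at day 6 over day 3, 4 in OCI-Ly7 at day 6 over day 0, 1 at day 6 over day 3, and 12 for the difference at day 6. Libraries with the same number deviated together weakly or not at all (correlations over genes of -0.147 to 0.13). Such correlations cannot settle whether the numbers pair the samples, so the counts with the block are given beside those without it. Depth in fragments is unknown, and relative depth was inferred within each line from ratios between libraries in rows of very low FPKM. So inferred, it was lower at day 6 than at day 0 in both lines. Levels near 0 in TMD8, such as those of ENO2 and PFKFB4, rest on few fragments.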

Other observations

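KDM3A, a histone demethylase gene induced by HIF that is not among the 37, differed between the lines in its day 6 change, as PFKFB4 and ENO2 did. It stood at 39.0 and 39.9 scaled FPKM at day 6, against 25.3 and 27.5 at day 0, in OCI-Ly7, and at 8.60 and 8.41, against 10.4 and 10.8, in TMD8. It rose in OCI-Ly7 (log2 change 0.56, adjusted p = 0.0251, and 0.063 as deposited) and fell in TMD8 (-0.29, adjusted p = 0.0237). The difference of OCI-Ly7 minus TMD8 was 0.85 (adjusted p = 0.000603). It was named after its values were seen.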
